A study of Schizosaccharomyces pombe with 15 samples.

Results

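The genes described here are 72 protein-coding genes of fission yeast (Schizosaccharomyces pombe) whose start-site tags were lower in each of 3 stresses than in the matching unstressed culture. They were taken from 5886 gene rows counted by CAGE (cap analysis of gene expression). This assay reads only the capped 5′ end of each RNA, so 1 tag marks 1 transcript start and a gene's tag count is not divided by its length. Rows for non-coding, small nucleolar and small nuclear RNA were left out by their names, which left 4931 rows, and 4285 of these reached 5 CPM (tags per 1000000 tags of the library) on average in both unstressed groups. The members were selected on these stress measurements themselves: a gene was a member when its mean CPM was at most 0.7 times the unstressed mean after nitrogen starvation, after heat and after H2O2. The limit was met by 797 rows (18.6% of the 4285) in nitrogen starvation, 1283 (29.9%) in heat and 421 (9.82%) in H2O2, and by 72 (1.68%) in all 3.

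All 15 libraries came from wild-type cells of the h-S 972 strain, with 3 libraries in each of 5 groups. Nitrogen-starved cells had spent 16 h at 30 °C in EMM lacking ammonium chloride, and they were set against cells growing in EMM, a defined minimal medium. Heat-shocked cells had been held for 15 min at 39 °C, and oxidatively stressed cells had received 0.5 mM H2O2 for 15 min at 30 °C. Both were set against cells growing in YES, a rich medium with yeast extract. The labels give the medium of the stressed cultures as YES in one field and as YEL in another. The labels call the cultures triplicate and say nothing more of their independence, so p-values measure the spread between these libraries only. Starvation and the short stresses differ in medium and in duration as well as in kind, and these cannot be told apart. CAGE of bulk cultures also cannot tell fewer cells expressing a gene apart from fewer transcripts per cell.

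A growing yeast cell spends much of its transcription on ribosomes. RNA polymerase I transcribes the large rRNA precursor, and a large set of assembly factors (helicases, processing factors, chaperones) cuts, modifies and packs that precursor with ribosomal proteins. Enzymes that modify tRNA, supply nucleotides and carry nutrients serve the same growth, while wall-cutting enzymes open the septum between daughter cells, and yeasts commonly lower many growth genes under stress.

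Marker genes followed the labels. The chaperone gene hsp104 averaged 8582 CPM after heat, against 288 CPM in YES. The catalase gene ctt1 averaged 1847 CPM after H2O2, against 48.5 CPM in YES. The meiotic regulator gene mei2 averaged 8188 CPM in starvation, against 129 CPM in EMM. Library totals ran from 9665353 to 21760682 tags, so that 3 counts were worth 0.138 to 0.31 CPM, and the lowest count of any member in any library was 18.

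Upstream sequences are given for the 4 RNA polymerase I members, the largest group of subunits of 1 enzyme in the set. They are also given for some members with a HomolE or MCB motif, described below. Others with these motifs, ade9 and pho1, are not shown. Each sequence runs 5′ to 3′ on the gene's strand and ends at the base where most tags of the gene's main start-site cluster began. Capitals mark the last base, where the tags began, with the base before it, and the motif named on the line, while other motifs searched for are left unmarked. The sequences are from the RefSeq genome ASM294v3.
nuc1, chromosome II, + strand, 3127753 to 3127832: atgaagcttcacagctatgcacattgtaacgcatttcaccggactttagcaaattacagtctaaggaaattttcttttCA
rpa12, chromosome III, + strand, 1040020 to 1040100: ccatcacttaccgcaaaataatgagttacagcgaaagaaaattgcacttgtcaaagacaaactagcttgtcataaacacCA
rpa34, chromosome II, + strand, 1763614 to 1763694: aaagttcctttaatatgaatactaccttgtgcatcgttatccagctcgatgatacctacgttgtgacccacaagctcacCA
rpa49, chromosome I, − strand, 3927279 to 3927359, HomolD box on the other strand: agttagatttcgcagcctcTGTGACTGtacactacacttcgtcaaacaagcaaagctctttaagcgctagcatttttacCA
rps1401, chromosome I, + strand, 3436164 to 3436244, HomolE box: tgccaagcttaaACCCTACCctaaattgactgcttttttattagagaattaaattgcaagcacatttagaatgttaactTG
laf1, chromosome I, − strand, 5252234 to 5252314, HomolE box: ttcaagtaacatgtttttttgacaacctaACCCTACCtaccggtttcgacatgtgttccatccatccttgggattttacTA
sla1, chromosome I, − strand, 1383548 to 1383628, HomolE box on the other strand: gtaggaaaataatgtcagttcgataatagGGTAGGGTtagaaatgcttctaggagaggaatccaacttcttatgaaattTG
tos4, chromosome I, + strand, 1922463 to 1922543, MCB motif: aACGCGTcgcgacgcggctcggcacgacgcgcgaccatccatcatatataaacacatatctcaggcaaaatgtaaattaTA
ani1, chromosome II, + strand, 4064390 to 4064520, MCB motif: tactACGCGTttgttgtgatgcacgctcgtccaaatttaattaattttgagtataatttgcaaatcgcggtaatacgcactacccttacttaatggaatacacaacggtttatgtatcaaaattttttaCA

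Each of the 9 sequences ended on a pyrimidine followed by a purine, the usual step at a start site. All 4 RNA polymerase I members began on CA, which was noticed after the sequences were read. Across the set, 33.3% of the members began on CA, against 36.4% of all coding rows at 5 CPM or more. The motifs and start sites of the whole set are taken up after the expression values.

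The 3 stress comparisons chose the members, so the members' values there are given as a description, with no test. The members had a median ratio of 0.557 to the EMM level in starvation, with quartiles of 0.45 and 0.626, while the median of the 4285 rows was 1.22. After heat their median ratio to the YES level was 0.421, with quartiles of 0.334 and 0.509, against 0.848 for the 4285 rows. After H2O2 it was 0.538, with quartiles of 0.439 and 0.64, against 0.988 for the 4285 rows. By library totals, heat was the stress of the lowest ratio for 49 members, starvation for 15 and H2O2 for 8, an order that depended on the scaling. The weakest lowering, the one that decided membership, was in H2O2 for 36 members, in starvation for 31 and in heat for 5.

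Without the thiamine gene nmt1, which is treated below, the other members held 0.648%, 0.618% and 0.521% of the tags of nitrogen-starved libraries 1 to 3, against 1.32%, 1.24% and 1.26% in EMM. They held 0.531%, 0.465% and 0.474% after heat and 0.759%, 0.732% and 0.669% after H2O2, against 1.34%, 1.51% and 1.38% in YES. All stressed libraries lay below all unstressed ones for 68 members in starvation, where 23.8% of the 4285 rows did so. The same held for 70 members in heat, where 39.7% of rows did, and for 67 in H2O2, where 18.4% did. In all 3 comparisons at once it held for 64 members and for 4.62% of rows. The 8 members with overlapping libraries somewhere were asl1, los1, brx1, syo2, nmt1, utp23, mce1 and sir1.

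The limit cut through a continuous range. For 29 members the largest of the 3 ratios lay between 0.65 and 0.7, and for 47 further rows it lay between 0.7 and 0.75. Just inside were nmd5, a karyopherin gene, at 0.6994 in H2O2 and syo2 at 0.6992. Just outside were rpa43, another RNA polymerase I subunit, at 0.7007 in H2O2, and utp502 at 0.7029 in starvation. All 3 ratios were at most 0.5 for 13 members. When libraries were scaled by edgeR's TMM factors in place of their totals, 149 rows met the rule, 68 of the 72 among them. The members lost were syo2, met17, laf2 and utp23. Of the 4285 rows, 1492 were at or below 0.7 in starvation under TMM, 853 after heat and 435 after H2O2. TMM placed the median of all genes at a log2 change of 0.04 in starvation, where library totals placed it at 0.49, so every member's ratio in starvation was lower under TMM. The stress of the lowest ratio then changed for many members. For nmd5 starvation replaced heat, at 0.367, 0.551 and 0.692 in starvation, heat and H2O2. For nuc1 heat stayed lowest, at 0.44, beside 0.49 in starvation and 0.59 after H2O2.

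**Figure D1:**
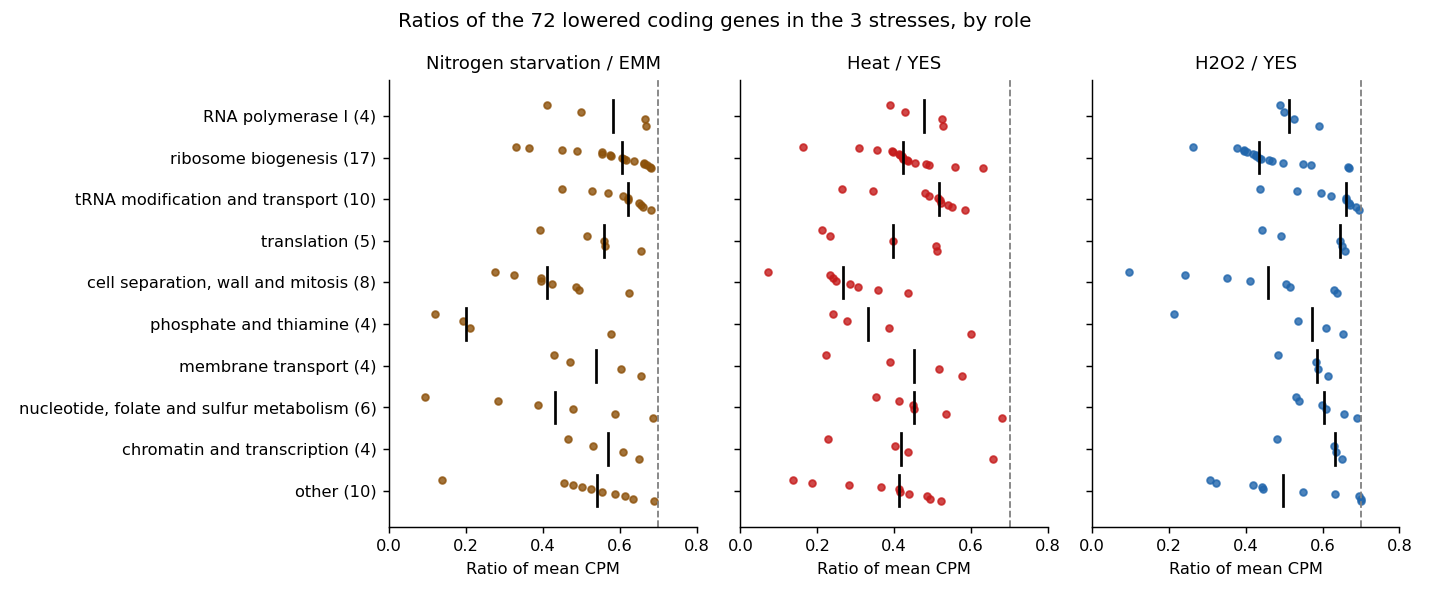
Each point is 1 of the 72 members, placed by its ratio of mean CPM in a stress to the matching unstressed mean (3 libraries each), with roles down the page, the number of members in brackets, black bars for medians and the limit of 0.7 dashed. Heat gave the lowest median for cell separation, wall and mitosis genes, at 0.266, while phosphate and thiamine genes had their lowest median, 0.201, in starvation.

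The 4 RNA polymerase I members were nuc1, which encodes the largest subunit, and rpa12, rpa34 and rpa49, which encode smaller subunits. Their ratios were 0.41 to 0.669 in starvation, 0.388 to 0.527 after heat and 0.489 to 0.591 after H2O2. The gene rpa49 had 138, 131 and 94.2 CPM in starvation, against 269, 314 and 304 CPM in EMM. It had 159, 150 and 164 CPM after heat and 176, 167 and 207 CPM after H2O2, against 377, 354 and 372 CPM in YES. Every stressed library of rpa49 lay under every unstressed one. The gene nuc1 had 120, 111 and 115 CPM in starvation, against 183, 173 and 160 CPM in EMM. It had 82.1, 98.2 and 98.2 CPM after heat and 148, 149 and 128 CPM after H2O2, against 218, 222 and 278 CPM in YES. For nuc1 the heat libraries were also all below the H2O2 libraries. For rpa12 all 3 ratios were close together, at 0.499, 0.527 and 0.527 in starvation, heat and H2O2.

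Of 13 RNA polymerase I genes on a list that also held general factors of the enzyme, 11 reached 5 CPM. Of these, 7 were at or below 0.7 in starvation, 9 after heat and 7 after H2O2. In edgeR's test with Benjamini-Hochberg adjustment at 0.05, 5 of the 9 listed non-members were lower in starvation, 6 after heat and 5 after H2O2. Of all 5886 genes, 32.9%, 20.1% and 8.78% were lower. Of coding rows at 5 CPM or more that were not members, 38.8%, 21.2% and 8.97% were lower. The 4 members are part of the counts at 0.7 but not of the edgeR counts, since the rule chose them by these comparisons. The second largest subunit gene, rpa2, missed membership by its starvation ratio of 0.743, beside 0.422 after heat and 0.538 after H2O2. The gene rpc19, whose product is shared with RNA polymerase III, had ratios of 1.95 in starvation, 0.363 after heat and 0.535 after H2O2. Under TMM, 6 of the 11 met the rule in place of 4.

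Ribosome biogenesis supplied 17 members, the largest group, with median ratios of 0.605 in starvation, 0.423 after heat and 0.436 after H2O2. The RNA helicase gene dbp3 stood lowest. It had 25.6, 25.5 and 11.9 CPM in starvation, against 48.7, 69.6 and 72.8 CPM in EMM. It had 16.6, 14 and 17.8 CPM after heat and 26.8, 24 and 27.9 CPM after H2O2, against 119, 107 and 72.7 CPM in YES. Its groups did not overlap, and its ratios were 0.329, 0.162 and 0.264 in starvation, heat and H2O2.

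Other members of the group act at different steps of assembly. The helicase gene has1 was the most abundant, with 212, 230 and 179 CPM in starvation, against 324, 340 and 309 CPM in EMM. It had 177, 169 and 194 CPM after heat and 182, 162 and 178 CPM after H2O2, against 428, 395 and 475 CPM in YES. The heat and H2O2 values of has1 overlapped each other and lay below every YES library. The ratios in starvation, heat and H2O2 were 0.45, 0.307 and 0.468 for mrt4, a factor known from budding yeast to hold the place of a stalk protein on the immature large subunit. They were 0.487, 0.395 and 0.379 for rrb1, whose budding yeast counterpart escorts a newly made ribosomal protein. They were 0.364, 0.489 and 0.427 for rrs1, a ribosome biogenesis protein gene, and 0.671, 0.412 and 0.395 for ppp1, of the pescadillo family. They were 0.678, 0.423 and 0.426 for nat10, an acetyltransferase of rRNA and tRNA, and 0.616, 0.557 and 0.57 for crb3, a subunit of the rixosome. Thus, by library totals, the starvation ratio was nearer to the limit than the heat ratio for most of those named, with rrs1 the exception. Under TMM this order reversed for has1, mrt4, rrb1 and crb3, with 0.45 in starvation and 0.631 after heat for crb3. It held under TMM for ppp1 and nat10.

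Most ribosome biogenesis genes stayed out of the set because of starvation. On a list of 127 measured genes, 121 reached 5 CPM, and 115 of these were at or below 0.7 after heat, 101 after H2O2 and 24 in starvation. The count in starvation was 66 under TMM scaling, under which 1492 of the 4285 rows passed in starvation in place of 797. The number meeting all 3 limits was 47 in place of 12, and over all rows 149 in place of 72. In edgeR, which used TMM, 101 of the 115 listed non-members were lower after heat, 86 after H2O2 and 59 in starvation. The shares of all genes that were lower were 20.1%, 8.78% and 32.9%. Those of coding non-members at 5 CPM or more were 21.2%, 8.97% and 38.8%. Cytosolic ribosomal protein genes reversed the list's order, with 119 of 131 at or below 0.7 in starvation, 36 after heat and 3 after H2O2. Under TMM these counts were 126, 14 and 3. The single ribosomal protein member was rps1401, at 0.654, 0.508 and 0.645 in the same order of stresses. None of 26 translation factor genes was a member, with 19 at or below 0.7 in starvation, 12 after heat and 1 after H2O2. Under TMM these counts were 23, 5 and 1, and 1 of the 26 met the rule. A wider class of 54 genes with translation factor products at 5 CPM held 1 member. It was trm6, which has the product name of an initiation factor subunit and is grouped below with tRNA modification. The initiation helicase gene sum3, a member described below, was in neither list. The lists were drawn up from gene names and products with earlier results of these data known, and no test of the lists was made.

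**Figure D2:**
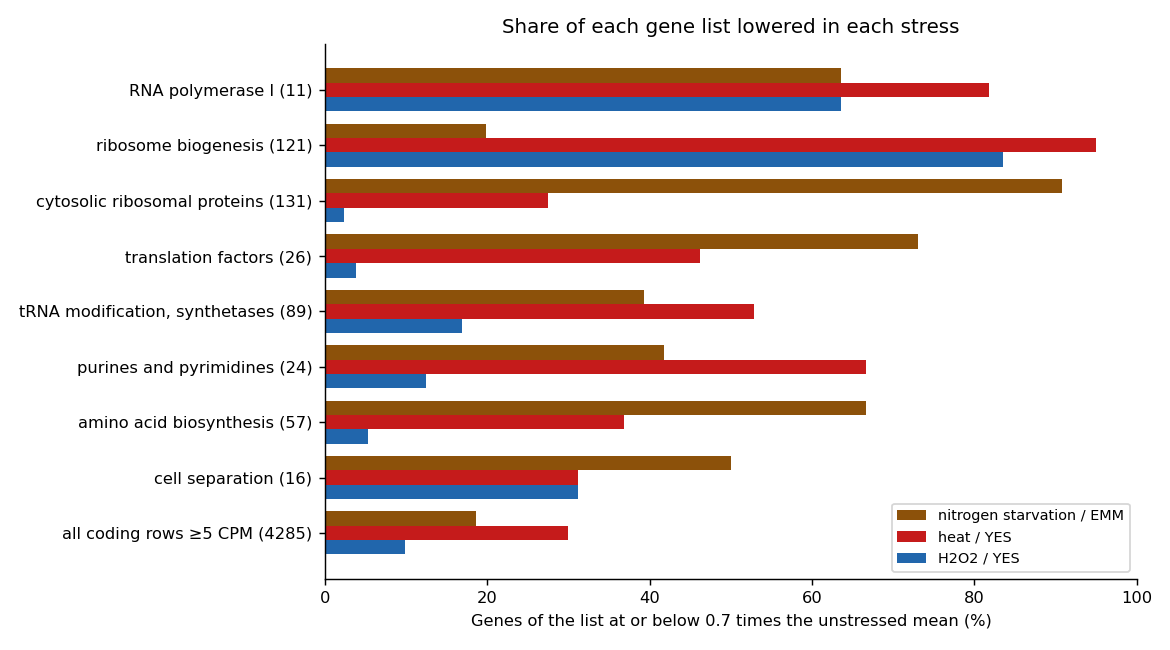
Bars give the percentage of each list's genes (number at 5 CPM or more in brackets) whose mean CPM, scaled by library totals, was at or below 0.7 times the unstressed mean in nitrogen starvation, heat and H2O2. RNA polymerase I genes passed at 63.6%, 81.8% and 63.6%, while ribosome biogenesis genes passed at 19.8%, 95% and 83.5% and cytosolic ribosomal protein genes at 90.8%, 27.5% and 2.29%.

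Genes for tRNA modification and transport gave 10 members, with median ratios of 0.622 in starvation, 0.516 after heat and 0.661 after H2O2. Both subunits of 1 enzyme were among them: trm8, the catalytic subunit of the tRNA guanine-N7 methyltransferase, and trm82, its partner. The gene trm82 had 3.96, 2.65 and 3.52 CPM in starvation, against 8.77, 6.4 and 7.4 CPM in EMM. It had 5, 4.1 and 3.98 CPM after heat and 6.33, 6.25 and 4.06 CPM after H2O2, against 9.83, 15.2 and 13 CPM in YES. All stressed libraries of trm82 lay below the unstressed ones, at low levels throughout. Its ratios were 0.449, 0.344 and 0.437, while those of trm8 were 0.526, 0.521 and 0.672 in starvation, heat and H2O2.

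The pseudouridine synthase gene pus1 differed most between stresses in this group. It had 98.3, 64.7 and 77.7 CPM in starvation, against 119, 116 and 135 CPM in EMM. It had 42.5, 41.3 and 38.9 CPM after heat and 103, 104 and 101 CPM after H2O2, against 132, 148 and 187 CPM in YES. The heat libraries of pus1 were less than 43 CPM and the H2O2 libraries more than 100 CPM. The others were trm2, trm6, trm13 and trm112, which encode tRNA methyltransferases or their partners, the queuine transferase gene qtr1, the tRNA exportin gene los1 and the La protein gene sla1. The ratios of these 7 ran between 0.481 and 0.694 in all 3 stresses. Of 89 genes with tRNA modification or synthetase products at 5 CPM, 35 were at or below 0.7 in starvation, 47 after heat and 15 after H2O2, and 7 were members. Under TMM these counts were 54, 35 and 16, and 9 met the rule.

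Among 5 members with roles in translation, sum3 was the most abundant member in YES. It encodes a DEAD-box RNA helicase of translation initiation. It had 1363, 1684 and 850 CPM in starvation, against 2530, 2273 and 2147 CPM in EMM. It had 919, 550 and 634 CPM after heat and 1762, 1162 and 1446 CPM after H2O2, against 3405, 4210 and 2247 CPM in YES. The spread between libraries was wide, yet every stressed library was below every unstressed one. The gene mmd1, for deoxyhypusine hydroxylase, which matures the translation factor eIF5A, had 44.7, 43.4 and 38.8 CPM in starvation, against 84.7, 77 and 84.9 CPM in EMM. It had 36.5, 40.1 and 36 CPM after heat and 84.3, 81.9 and 72.1 CPM after H2O2, against 160, 163 and 162 CPM in YES. Replicates of mmd1 lay close together, and heat stood below H2O2 in every library. The remaining genes of the group were rps1401, efm2, a methyltransferase, and rmt3, which methylates a ribosomal protein. The ratios of rmt3 were 0.392, 0.398 and 0.65 in starvation, heat and H2O2.

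**Figure D3:**
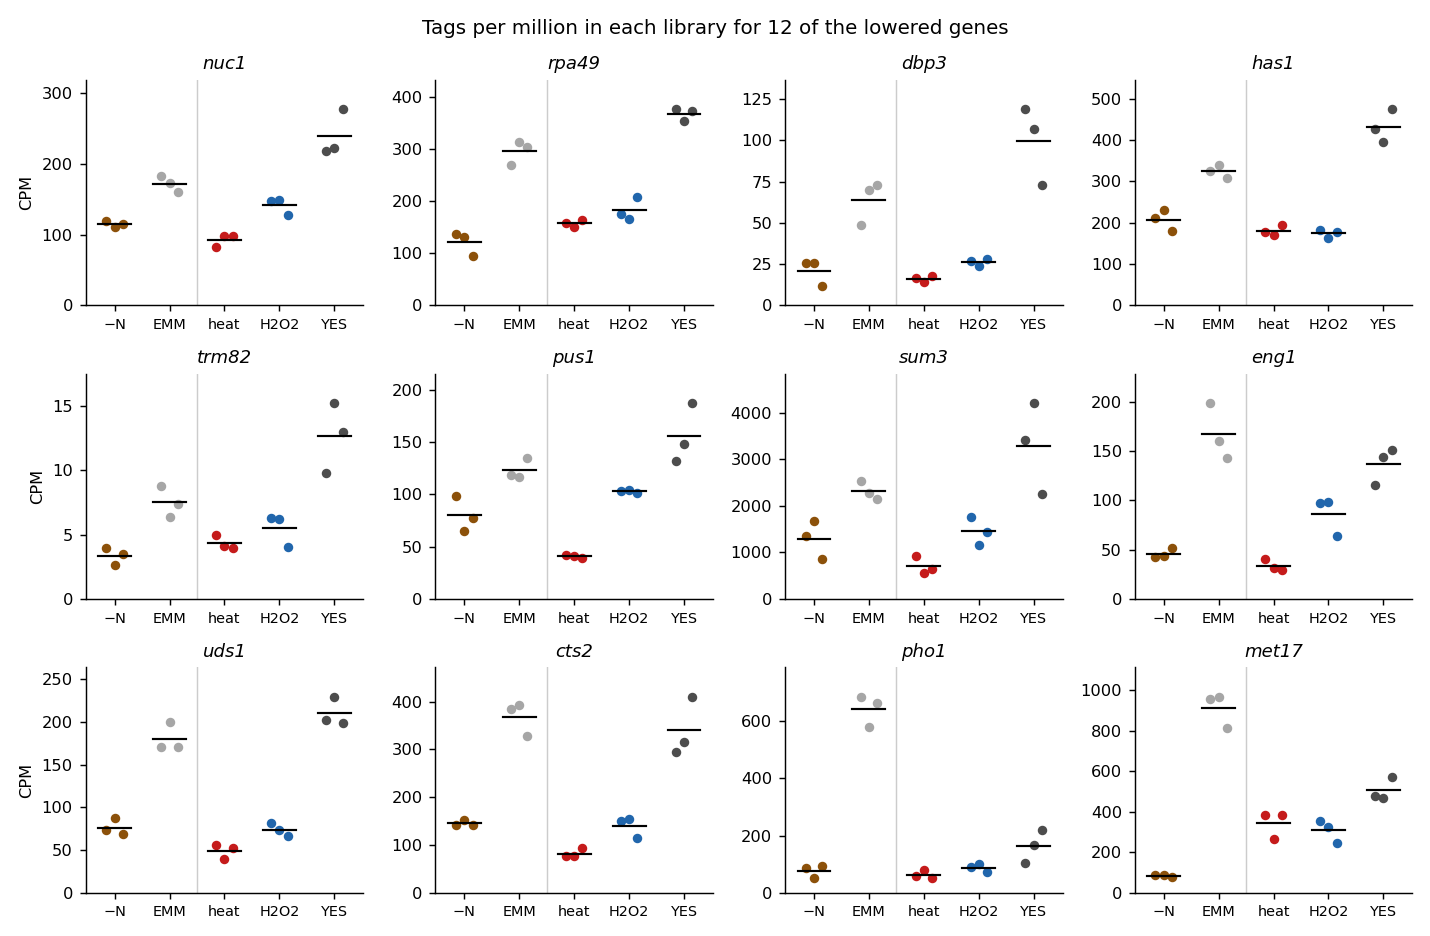
CPM of 12 members in each of the 15 libraries (points) with group means (bars), for nitrogen starvation (−N) and EMM left of the grey line and for heat, H2O2 and YES right of it, each panel with its own axis from 0. For dbp3 and pus1 the heat libraries reached at most 17.8 and 42.5 CPM, and for pho1 and met17 the EMM libraries lay above all others.

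Cell separation, wall and mitosis genes formed a group of 8 with the lowest median after heat, 0.266, beside 0.409 in starvation and 0.458 after H2O2. The eng1 gene, which encodes the endo-glucanase that cuts the septum wall, had 42.3, 43.9 and 51.4 CPM in starvation, against 199, 160 and 143 CPM in EMM. It had 40.9, 31.4 and 29.5 CPM after heat and 96.9, 98.6 and 63.5 CPM after H2O2, against 115, 144 and 151 CPM in YES. Of 16 genes on a cell separation list, 2 were members and 14 were not. The glucanase gene agn1 stood at 0.248 in starvation, 0.841 after heat and 0.598 after H2O2. The ratios of adg1 were 0.0624, 0.596 and 0.798, and those of cfh4 were 0.247, 0.967 and 0.788. In these 3 genes starvation gave the lowest ratio. Of the 14 non-members, 6 were at or below 0.7 in starvation, where 18.6% of the 4285 rows were. Of the 14 listed genes that were not members, edgeR called 8 lower in starvation, 3 after heat and 1 after H2O2. These were 57.1%, 21.4% and 7.14% of the 14, while 32.9%, 20.1% and 8.78% of all genes were lower. Of coding rows at 5 CPM or more that were not members, 38.8%, 21.2% and 8.97% were lower. In starvation 3 of the 14 were called higher, as were 35.7% of all genes.

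The chitinase gene cts2 had ratios of 0.396, 0.241 and 0.411 in starvation, heat and H2O2, and the septation gene uds1 had 0.423, 0.234 and 0.351. The gene slp1, which encodes an activator of the anaphase-promoting ubiquitin ligase, was the lowest member in YES. It had 7.67, 2.72 and 7 CPM in starvation, against 15.8, 9.1 and 10.3 CPM in EMM, and its ratios were 0.306 after heat and 0.241 after H2O2. The cell surface glycoprotein genes pfl3 and pfl8 had ratios of 0.325 to 0.516. The glucosyl hydrolase gene asl1 was abundant and variable. It had 531, 306 and 589 CPM in starvation, against 1051, 530 and 704 CPM in EMM, so that these groups overlapped.

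Phosphate and thiamine genes made a group of 4 in which starvation gave the lowest median ratio, 0.201. The acid phosphatase gene pho1 had 85.6, 51.7 and 93.2 CPM in starvation, against 685, 579 and 662 CPM in EMM. It had 58.1, 80.9 and 50.6 CPM after heat and 88.9, 101 and 73.3 CPM after H2O2, against 105, 165 and 221 CPM in YES. Its starvation ratio of 0.12 was the second lowest of the set. The thiamine-repressible acid phosphatase gene pho4 had 222, 102 and 169 CPM in starvation, against 694, 646 and 1019 CPM in EMM. Its ratios were 0.209, 0.276 and 0.608 in starvation, heat and H2O2. On a list of 9 phosphate genes, the 7 that were not members were all called higher in starvation by edgeR, where 35.7% of all genes were higher. Leaving out the members took out genes chosen as low there, so this count is not independent of the rule. The transporter gene pho84 stood at 2.98 in starvation, 0.0712 after heat and 0.0847 after H2O2.

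The gene nmt1, a thiamine synthesis gene that is repressed by thiamine, met the rule through 1 library. It had 1.72, 3.12 and 2.3 CPM after heat and 2.29, 2.11 and 2.01 CPM after H2O2, against 26.6, 1.59 and 1.64 CPM in YES libraries 1 to 3. Its YES mean of 9.94 CPM passed the limit of 5 CPM because of YES library 1, without which nmt1 was no member. In starvation nmt1 had 1050, 631 and 1815 CPM, against 10441, 2808 and 4859 CPM in EMM, a ratio of 0.193 with no overlap.

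The 4 membrane transport genes were zrt1 for zinc, ght5 for glucose and fructose, mce1, annotated as a citrate transporter, and SPCC1529.01, a transporter. The gene zrt1 had ratios of 0.471, 0.222 and 0.483 in starvation, heat and H2O2. The metabolic genes were ura3, gua1 and ade9 of nucleotide and folate synthesis, met9 of the folate cycle, and met17 and sir1 of sulfur assimilation. The homocysteine synthase gene met17 had the lowest starvation ratio of all members. It had 86.9, 87.5 and 79.3 CPM in starvation, against 956, 968 and 814 CPM in EMM. It had 383, 266 and 385 CPM after heat and 356, 324 and 247 CPM after H2O2, against 477, 470 and 573 CPM in YES. The starvation ratio of met17 was thus 0.0927, while its heat and H2O2 ratios were near the limit, at 0.68 and 0.61.

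The chromatin and transcription members were laf1 and laf2, which encode factors of the Clr6 histone deacetylase, the histone methyltransferase gene set7, and tos4, annotated as a transcription factor. The ratios of tos4 were 0.464, 0.227 and 0.635 in starvation, heat and H2O2. Among the 10 remaining members, SPAC8E11.10, annotated as a sorbose reductase, had 42.4, 57.8 and 31.7 CPM in starvation, against 396, 255 and 301 CPM in EMM. It had 83.5, 113 and 70.6 CPM after heat and 327, 322 and 180 CPM after H2O2, against 540, 580 and 857 CPM in YES. Its starvation and heat ratios, 0.139 and 0.135, lay far below the 0.419 of H2O2. The FKBP-type isomerase genes ani1 and ani2 were both members, at 0.633, 0.186 and 0.324 for ani1 and 0.689, 0.492 and 0.446 for ani2.

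EMM against YES and heat against H2O2 were not comparisons of the rule, but each uses group means that entered it. A high YES mean favoured membership, which can lower a member's value in EMM against YES. A high EMM mean favoured membership through the starvation ratio, which can raise that value. The heat and H2O2 means each had to be low. The calls, shares and medians below are therefore not independent of the selection, and the size of its effect was not tested. In EMM against YES, which compares the media in the absence of stress, edgeR's quasi-likelihood test over all 5886 genes called 7 members higher and 11 lower in EMM at a Benjamini-Hochberg adjusted p of 0.05. The shares were 9.72% higher and 15.3% lower, while 5.95% and 7.24% of all genes were called (6.14% and 3.5% of the coding rows at 5 CPM or more). The remaining 54 members were not called, and 34 members had an unadjusted p under 0.05. The median log2 change of the members was −0.27, against 0.00 for all genes, with 18 of 72 above 0.

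The genes called higher in EMM were, apart from pfl3, of the phosphate and thiamine, transport and metabolic groups. Leaving nmt1 aside, pho1 changed most, at 642 ± 55.5 CPM in EMM and 164 ± 58 CPM in YES (SD, n = 3 each), or 2.02 ± 0.25 on the log2 scale (SE, edgeR adjusted p = 2.75e-05). The gene pho4 rose by a log2 change of 1.37 ± 0.22 (edgeR adjusted p = 0.000485) and the transporter gene SPCC1529.01 by 1.12 ± 0.15 (8.42e-05). The glycoprotein gene pfl3 rose by 1.00 ± 0.17 (edgeR adjusted p = 0.000536) and met17 by 0.88 ± 0.18 (0.00339). The call of met9, 0.59 ± 0.17, was lost when EMM library 2 or 3, or YES library 1 or 2, was left out, with values of 0.51 to 0.62 on the log2 scale. For nmt1 the log2 change was 9.28 ± 1.08 (edgeR adjusted p = 2.2e-05). Without YES library 1 it was 11.95 on the log2 scale.

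Of the genes lower in EMM, mmd1 and pfl8 were the steadiest calls. The gene mmd1 had 82.2 ± 4.54 CPM in EMM and 162 ± 1.8 CPM in YES (SD, n = 3 each), or −0.95 ± 0.11 on the log2 scale (edgeR adjusted p = 2.32e-05). The glycoprotein gene pfl8 had 27 ± 1.83 CPM in EMM and 51.5 ± 3.88 CPM in YES (SD, n = 3 each), −0.90 ± 0.12 on the log2 scale (edgeR adjusted p = 8.05e-05). These calls stood in each of the 13 alternative fits, which differed in scaling, tool, filter or libraries, but not when a minimum log2 change of 1 was asked for. The other 9 calls were SPAC8E11.10 (log2 change −1.01), meu6 (−0.76), trm82 (−0.72), rlp24 (−0.57), ani2 (−0.54), zrt1 (−0.53), nuc1 (−0.44), sla1 (−0.41) and SPAC8F11.04 (−0.40). Each was lost in at least 3 of the 6 fits that left out 1 EMM or YES library. The count of 11 lower members was 4 without EMM library 2, 3 without EMM library 3, 4 without YES library 1, 4 without YES library 2 and 5 without YES library 3.

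Heat against H2O2 compares the short stresses with each other and leaves out the YES libraries. Here 15 members (20.8%) were lower in heat and 1 (1.39%) higher, while 12% of all genes were called lower and 15.7% higher (12.2% and 14.6% of coding rows at 5 CPM or more). The median log2 change of the members was −0.16, against 0.00 for all genes, with 25 of 72 above 0 and 24 at an unadjusted p under 0.05. The count of 15 was 7 without H2O2 library 1 and 8 without heat library 2, and 25 when libraries were scaled by totals alone. Under that scaling the median log2 change of all genes was itself −0.20. The share of all genes called lower under it was not counted, so the 25 cannot be set against a background.

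The 7 members below were called lower in heat in each of the 13 alternative fits of the same kinds, and 4 members were called when a minimum log2 change of 1 was asked for. SPAC8E11.10 had 89.2 ± 22 CPM after heat and 276 ± 83.6 CPM after H2O2 (SD, n = 3 each), or −1.45 ± 0.28 on the log2 scale (edgeR adjusted p = 0.00117). The log2 change was −1.31 ± 0.26 for tos4 (edgeR adjusted p = 0.00135), −1.17 ± 0.19 for eng1 (0.000195) and −1.14 ± 0.14 for pus1 (1.53e-05). It was −0.94 ± 0.22 for pho4 (edgeR adjusted p = 0.00524), −0.93 ± 0.16 for zrt1 (0.00051) and −0.89 ± 0.11 for mmd1 (2.52e-05). In all 7 genes each heat library was below each H2O2 library. They came from different roles, and no ribosome biogenesis gene was among them.

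The other 8 lower calls, among them sum3 (−0.87), cts2 (−0.57), rcl1 (−0.48) and nuc1 (−0.41), were lost in at least 3 of the 6 fits that left out 1 heat or H2O2 library. The call of sum3 was lost without H2O2 library 1 or 3 or heat library 2 or 3, with values of −0.90 to −0.68. The 1 higher call was utp23, an rRNA processing gene, with 23.4 ± 6.74 CPM after heat and 18.5 ± 1.73 CPM after H2O2 (SD, n = 3 each). Its log2 change was 0.52 ± 0.18 (edgeR adjusted p = 0.0408), and the call was lost without H2O2 library 2 or 3 or heat library 1 or 2, with values of 0.37 to 0.47, and under scaling by totals.

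**Figure D4:**
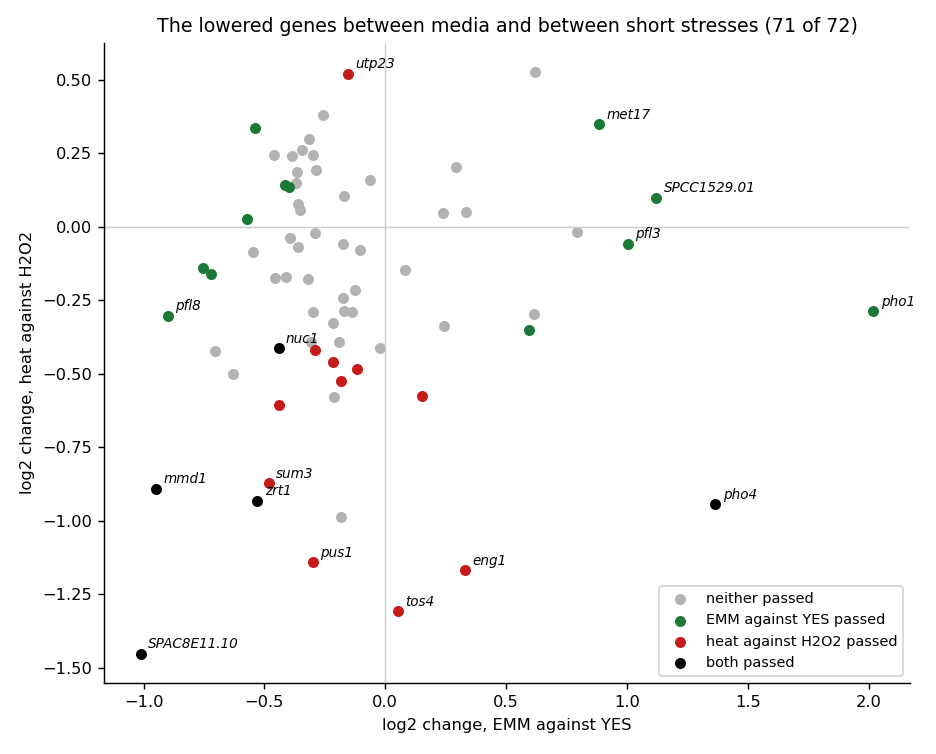
Each point is 1 member (71 of 72, without nmt1 at 9.28 on the horizontal axis), by its edgeR log2 change in EMM against YES and in heat against H2O2, coloured by which of the 2 comparisons passed an adjusted p of 0.05. SPAC8E11.10, mmd1, zrt1 and nuc1 were lower in both, and pho4 was higher in EMM and lower in heat.

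The start sites from which the members were read also differed between conditions. Of the 72 members, 27 (37.5%) had a single cluster of start sites, against 41.4% of the coding rows at 5 CPM or more. The main cluster had a median width of 177.5 bp, against 210 bp, and its peak lay within 100 bp of the annotated start in 97.2% of members, against 94.1%. The median distance between the main peak and the coding start was 60.5 bp in members and 90 bp in coding rows. Counting the main cluster alone, 82 rows met the rule, 70 of the 72 among them.

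The main cluster was the one with the most tags summed over all 15 libraries. Among the 45 members with more than 1 cluster, the median share of tags outside the main cluster was 4.62% in starvation, against 2.66% in EMM. It was 4.38% after heat and 3.99% after H2O2, against 3.25% in YES. Over the 2506 coding rows with more than 1 cluster, these medians were 4.34% in starvation, against 4.14% in EMM, and 5.49% after heat and 5.14% after H2O2, against 4.74% in YES. In starvation the share was above every EMM library in every starved library for 18 members (40%), against 33% of those coding rows. The corresponding shares were 26.7% of members and 21% of rows for heat, and 26.7% of members and 14.6% of rows for H2O2. In genes chosen as low under stress, the unstressed libraries weigh more in the choice of main cluster. A higher share outside it under stress can thus be partly built in for the members, and the coding rows were not chosen in this way. The size of this effect was not tested. For a few members the shift in starvation was large, and these contrasts carry no test because they chose the members.

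In uds1 a cluster that peaked 942 bp inside the coding region held 60%, 49% and 63.7% of the gene's tags in starvation, against 3%, 2.4% and 3.6% in EMM. The main cluster of uds1, 39 bp before the coding start, was thus at 0.185 times its EMM level, where the gene as a whole was at 0.423. In eng1 a cluster 2317 bp inside the coding region held 56.1%, 62.6% and 56.4% in starvation, against 14.6%, 17.5% and 18.6% in EMM. The main cluster of eng1 stood at 0.139 times its EMM level and the whole gene at 0.274. Tags inside a coding region mark capped 5′ ends there, so for uds1 and eng1 the gene total overstates what began at the main start.

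Other members shifted to starts upstream of the coding region. In cts2 a cluster 911 bp before the coding start held 35.9%, 40.9% and 32.6% of tags in starvation, against 1.9%, 2.3% and 2.2% in EMM. In the phosphate transporter gene pho843, the cluster 575 bp before the coding start held 72.5%, 85.9% and 78.4% in starvation, against 18.7%, 19.4% and 18.9% in EMM. In EMM most tags of pho843 began 561 bp or more inside the coding region. The main cluster of pho843 was at 0.123 times its EMM level in starvation and the gene at 0.576, so that its membership there rested on starts within the coding region. The gene averaged 9.95 CPM in EMM and 5.74 CPM in starvation. With the shares above, tags at the cluster 575 bp before the coding start thus rose in starvation, at low levels. By contrast, the main cluster of trm13 stood at 0.853, 0.725 and 0.773 in starvation, heat and H2O2, and this gene met the rule only with its starts inside the coding region.

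**Figure D5:**
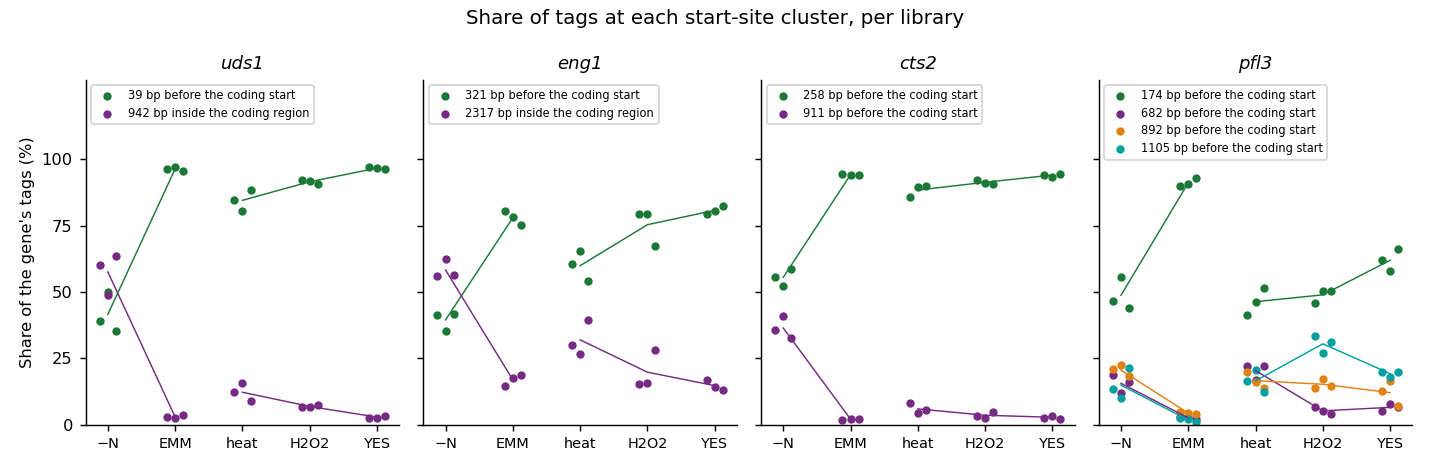
Points give each library's share of a gene's tags (percent) at each start-site cluster that reached 10% in some group, with lines through group means, for uds1, eng1, cts2 and pfl3. In nitrogen starvation (−N) the main cluster held 41.6% for uds1 and 39.5% for eng1, against 96.4% and 78% in EMM.

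Start-site usage was tested with edgeR's diffSpliceDGE and Simes' method in the 16 members with at least 2 clusters that each held 10% of the gene's tags in some group. In EMM against YES, 4 of the 16 were called, against 18.5% of 1693 genes tested. In pfl3 the main cluster, chromosome II 672656 to 673083 and 174 bp before the coding start, held 91.2% ± 1.56 of tags in EMM and 62% ± 4.23 in YES (SD, n = 3 each, edgeR adjusted p = 4.41e-12). In SPCC1529.01 the main cluster held 82.3% ± 1.2 in EMM and 65.7% ± 0.346 in YES (SD, n = 3 each, edgeR adjusted p = 0.00458). In zrt1 it held 91.3% in EMM and 97.1% in YES (edgeR adjusted p = 6.51e-05), and in pho1 99% in EMM and 95.5% in YES (1.27e-07).

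In heat against H2O2, 6 of the 16 were called, against 30.4% of genes tested. In pfl3 a cluster 682 bp before the coding start held 20.4% ± 3.07 of tags after heat and 5.26% ± 1.36 after H2O2 (SD, n = 3 each, edgeR adjusted p = 5.6e-05). The main cluster of eng1 held 59.9% ± 5.62 after heat and 75.4% ± 6.87 after H2O2 (SD, n = 3 each, edgeR adjusted p = 0.00331), and that of tos4 held 72.2% ± 6.68 after heat and 85.8% ± 1.61 after H2O2 (0.0262). The shifts of uds1, cts2 and zrt1 were under 10 percentage points. The count of 6 was 3 without H2O2 library 1, 2 without H2O2 library 2, 4 without heat library 1 and 4 without heat library 2.

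Promoters were searched on both strands in 250 bases before to 50 bases after the annotated start, in the members and in all 4280 coding rows with such a window. The HomolE box (ACCCTACC), known at ribosomal protein genes, lay in 5.56% of members and 1.85% of rows, the members being rps1401, laf1, sla1 and ade9. The match of ade9 lay 35 bases after the start, and the others lay before it. The HomolD box (CAGTCACA), another element of ribosomal protein promoters, lay in 1.39% of members, which was rpa49, and in 3.15% of rows. The MCB motif (ACGCGT), of genes expressed around the start of DNA replication, lay in 4.17% of members, tos4, ani1 and pho1, and in 3.11% of rows.

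For the heat shock element and the other motifs below, the shares were close or lower. The heat shock element (GAANNTTC) lay in 12.5% of members and 10.8% of rows, and the TGACGT element of stress-activated factors in 2.78% of members and 5.89% of rows. The GATA motif (AGATAA or TGATAA) lay in 30.6% of members and 43.3% of rows, and TATAAA lay in 43.1% of members and 48.2% of rows. CCAAT lay in 40.3% of members and 41.8% of rows, and the forkhead motif GTAAACA in 15.3% of members and 16.1% of rows. These shares are a description of letters in a window, with 1 to 4 members behind the smallest, and overlapping matches of different motifs were not removed.

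The members were spread over the genome, with 31 on chromosome I, 24 on II and 17 on III, or 43.1%, 33.3% and 23.6% of them, against 45.4%, 36.5% and 18% of the 4285 rows. A pair of neighbours, slp1 and eng1, both members of the cell separation group, pointed away from each other, and so did utp23 and trm82. These were the only adjacent members among 3649 adjacent pairs of rows. No member had a near copy of its first 27 bases elsewhere in the genome with at most 2 mismatches, so sharing of tags between copies was not found for the set.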

How the data were processed

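CAGE tags were measured in 15 libraries of wild-type S. pombe. Raw counts for genes and for start-site clusters were deposited by the authors, with log2 values of both, and with a cluster list whose score is, from its values, a mean CPM deposited by the authors. The submitters' processing notes name CASAVA 1.6, Bowtie 0.12.7 and the build ASM294v2. Clustering, counting and normalization are not given in the sources used here. Cluster coordinates fitted the reference ASM294v3, with a pyrimidine-purine step at 85.1% of peaks, against 4.71% and 2.84% at peaks moved by −1 and 1 bp.

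Member levels and the rule used counts divided by library totals. Members, gene lists and roles were chosen with earlier results of these data known. Counts were tested with edgeR 4.0.16 (R 4.3.3, glmQLFTest, TMM, all 15 libraries in one fit, Benjamini-Hochberg over 5886 genes, 0 removed by filterByExpr), after tests on simulated data. The deposited log2 values served only as an alternative, with limma 3.58.1. DESeq2 1.42.0, other scalings, filters, ratio limits and left-out libraries were also tried. Named genes were, among members, the 10 with the lowest largest ratio, the 10 highest in YES, up to 4 per list or product class, up to 5 called per direction, up to 3 with changed usage, and those at the limit. Others, such as slp1, trm13 and rrs1, were named after their values were seen. A further item is not reported here. Library totals limit precision: 3 counts equal 0.138 to 0.31 CPM, which covers counting error only.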

Additional observations from a re-analysis of the deposited data

How the results depend on the processing

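No single-gene call changed sign: of 442 alternative values for called members, 351 kept their side of the threshold and 91 lost it. Of 107 alternative counts, 82 stayed within 1.5 times and 25 did not. The rule gave 149 genes under TMM scaling, 13 at a ratio limit of 0.5, 197 at 0.8 and 70 to 88 when 1 library was left out, and 37 members met it in all 15 of those fits. In EMM against YES, lower calls numbered 11, but 1 with a minimum log2 change of 1, 17 in DESeq2 and 3 to 8 without 1 library. In heat against H2O2, lower calls numbered 15, but 25 under library totals, where the median of all genes was −0.20. They numbered 4 with the minimum change and 7 to 15 without 1 library. The 1 higher call became 0 under library totals, with the 6 libraries alone and with the minimum change, and 0 to 2 without 1 library. Usage calls in EMM against YES fell to 2 at a minimum share of 20%, and those in heat against H2O2 ran from 2 to 6 without 1 library. The cause was not tested.

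Same-numbered libraries did not consistently deviate together (r of 0.019, 0.085 and −0.065 for EMM with YES, and −0.223, 0.273 and 0.234 for heat with H2O2). With 3 libraries per group these values cannot exclude pairing, and starvation with EMM and the short stresses with YES were not checked. With the replicate number as a block, EMM against YES gave 7 higher and 9 lower members, heat against H2O2 gave 0 higher and 13 lower, and usage gave 4 and 6.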
